A study of Canis lupus familiaris with 29 samples.

Results

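The genes described here were detected in few tumours of a set of canine lymphomas and reached a clear level in at least 1 of them. RNA of 29 golden retriever lymphomas, 20 labelled B-cell and 9 labelled T-cell, had been sequenced, and expression is given as FPKM (fragments scaled to transcript length and to the size of the library). A gene is called detected in a library when its FPKM was at least 1, and a rarely detected gene when it was detected in 1 to 4 of the 29 libraries with a highest FPKM of at least 5. That rule was met by 226 of 16382 gene IDs (1.38%), or 1.78% of the 12692 IDs detected in any library. The rule reads the FPKM themselves, so the counts of libraries and the levels below describe the genes it chose and are not tests. It does not read the labels of the tumours.

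Of the B-cell libraries 9 were labelled female and 11 male, and of the T-cell libraries 6 female and 3 male. Of the 29 libraries 6 were labelled intact, 3 in each phenotype, and age at diagnosis ran from 2.0 to 14.0 years. No treatment is named on the labels, and the sources used here do not say how phenotype was determined. The labels do not say that each library came from a separate dog, so the p-values below measure the spread between these libraries. Libraries are numbered within each phenotype and written T1 to T9 and B1 to B20.

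Lymphomas arise from lymphocytes, the B cells that make antibodies and the T cells that kill infected cells or steer other immune cells. A mature lymphocyte expresses the genes common to all cells and those of its own lineage, and keeps most genes of other tissues silent. A tumour sample also holds blood vessels, connective tissue and other immune cells, and in such a bulk sample fewer expressing cells and less RNA per cell cannot be told apart. The table names genes by Ensembl ID and the reference at hand pairs none of these IDs with a symbol, so the genes are described by their pattern over the tumours, with 4 IDs given individually, and what the genes do is not analysed here. For the same reason no marker gene could be read to check the labelled phenotype, and no sequence is shown.

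Summed FPKM ran from 319067 to 677096 per library. Read from the steps between low FPKM, relative depth ran from 0.522 in T5 to 2.21 in B8, with B1 set to 1. Libraries held 9915 to 11097 genes at 1 FPKM or more. No 2 libraries held the same values. Depth in absolute fragments is unknown, so no counting intervals are given.

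Most rarely detected genes were found in T-cell tumours, although these are the smaller group. Of the 532 detections of the 226 genes, 339 (63.7%) fell in T-cell libraries, which make up 31.0% of the libraries. By gene, 117 were detected in T-cell libraries only, 46 in B-cell libraries only and 63 in both. The highest value lay in a T-cell library for 154 genes and in a B-cell library for 72. A lean towards T-cell libraries was also present, to a smaller extent, in the 914 genes detected in 1 to 4 libraries that stayed under 5 FPKM, where 53.2% of detections were in T-cell libraries. The difference between these shares was not tested.

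The number of these genes detected differed widely between tumours of the same phenotype. A T-cell library had from 5 to 89 of them, with 37.7 ± 28.3 (SD, n = 9), and a B-cell library from 1 to 55, with 9.65 ± 13.1 (SD, n = 20). The ranges of the phenotypes overlapped. T6 led with 89 genes, followed by T5 with 72, B8 with 55, T9 with 46 and T8 with 42, and these 5 libraries held 57.1% of all detections. T6, T5 and B8 between them had detected 180 of the 226 genes (79.6%). At the other end, 15 libraries had at most 5 of the genes each, and 14 of these were B-cell libraries, the exception being T1 with 5. Relative depth was 1.62 in T6, 0.522 in T5 and 2.21 in B8. The number of all genes at 1 FPKM or more was 10277 in T6, 10966 in T5 and 11069 in B8. The part of depth and of detection at large in these counts was not tested.

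**Figure D1:**
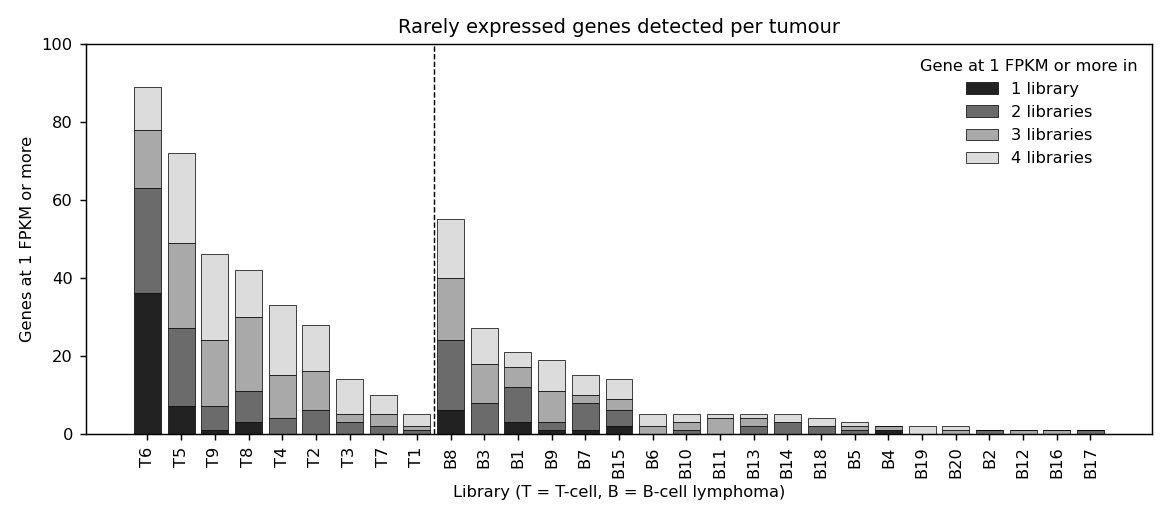
Each bar is 1 library, T-cell left of the dashed line and B-cell right, each ordered by height, and its height is the number of the 226 rarely detected genes at 1 FPKM or more there. Shades split the bar by the number of libraries, 1 to 4, in which the gene was detected; T6 stands at 89 genes, 36 of them in no other library, and most B-cell bars at 5 or fewer.

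The genes took a small part of all expression. Their summed FPKM was 0.123% ± 0.157 of the library total in T-cell (SD, n = 9) and 0.0307% ± 0.0472 in B-cell tumours (SD, n = 20). T6 stood highest at 0.495%, T5 followed with 0.240%, and B7 with 0.162% led the B-cell tumours. In B7 a single gene, ENSCAFG00000006679, made up 73.2% of this sum. In B8, with 55 detected genes, the share was 0.149%.

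In level, the genes ranged from just over the limit to very abundant. The highest FPKM of a gene had a median of 10.4, with the middle 50% of genes from 6.78 to 25.1 and a top value of 628. It was at least 50 in 24 genes, 17 with the highest value in a T-cell library, 15 of them in T6, and 7 in a B-cell library. At the edges of the rule, the members with the lowest peak reached 5.07 and 5.12 FPKM and the genes just left out 4.96 and 4.95 FPKM. The lowest values counted as detected were 1.01 FPKM and the highest not counted 0.9998 FPKM. A further 44 genes with a highest FPKM of at least 5 were detected in 5 libraries and are not members.

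High values did not rest on isolated fragments where this could be read. In 133 of the 226 genes most of the low values, scaled by relative depth, lay close to whole multiples of a smallest step that recurred in 2 or more libraries. In those genes the highest value was at least 26.6 steps, with a median of 287. The lowest value counted as detected was at least 3.098 steps, with a median of 66.2, and was under 10 steps in 12 genes.

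How sharply the genes were on in some tumours and off in the others varied. The highest FPKM of a gene was 5.601 to 873 times its highest value among the libraries where it was not detected, with a median of 18.4 over 223 genes. The other 3 genes were listed at 0 in all those libraries. The step between the lowest detected and the highest undetected library was much smaller, with a median of 3.93 times. It was at least 5 times in 105 genes and at least 100 times in 15. Of the 105 genes 60 were detected in 1 library, where the rule itself sets a step above 5 times. Of the others 26 were detected in 2 libraries, 9 in 3 and 10 in 4. In 42 genes (18.6%) the step was under 1.5 times, so that the libraries on either side of 1 FPKM differed little. For these 42 genes the number of tumours in which they count as on depends on the limit of 1 FPKM. Their peaks stood clearer, with a median of 10.2 FPKM and at least 5.601 times the highest undetected value. In 65.9% of the genes at least 1 of the undetected libraries reached 0.5 FPKM. Even so the median over the undetected libraries was listed at 0 in 70 genes and was under 0.1 FPKM in 132.

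The step depended on the number of libraries in which a gene was detected. Of the 61 genes detected in 1 library, 60 had undetected values above 0, and there the step had a median of 46.6 times and was never under 6.22 times. It had a median of 3.09 times for the 68 genes in 2 libraries, 1.96 times for the 53 in 3 libraries and 1.80 times for the 44 in 4 libraries. A gene in 1 library had to clear 5 FPKM there, while the lower libraries of the others had to clear only 1 FPKM, so part of this order follows from the rule. Among the detected libraries of a gene found in 2 to 4 of them, the highest value was a median of 5.98 times the lowest. The step down to the undetected libraries was larger than this spread in 45 of 163 such genes.

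**Figure D2:**
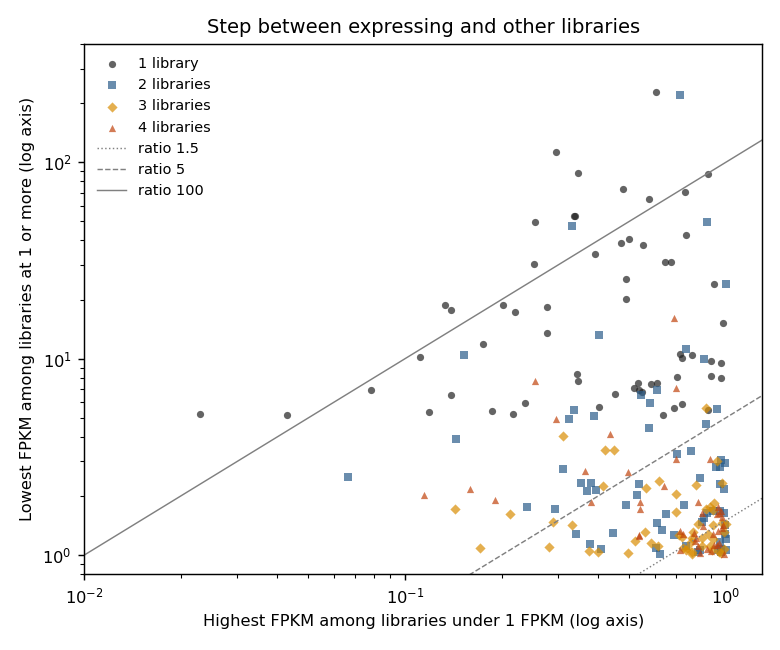
Each point is 1 of the 223 genes with an undetected value above 0, placed by its highest FPKM among libraries under 1 FPKM and its lowest FPKM among libraries at 1 FPKM or more, both on log axes, with lines at ratios of 1.5, 5 and 100. Genes detected in 1 library all lie above the line at 5, as the rule requires, while most genes in 3 or 4 libraries crowd near the corner at 1 FPKM.

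T6 supplied most of the genes found in a single tumour. Of the 61 such genes 36 (59.0%) were detected in T6 alone, 7 in T5 alone and 6 in B8 alone. Over the 36, the FPKM in T6 ran from 5.18 to 228 with a median of 16.2, and the step to the next library had a median of 62.1 times and was at least 8.27 times. The next library was T5 for 10 of the 36 genes and T7 for 5, with the other 21 spread over 15 libraries. T5 was also the library of lowest relative depth, 0.522, and the part of depth in this was not tested. With the rule applied again to the 28 libraries without T6, the number of members was 172 and the share of them in 1 library 17.4%, against 27.0% with T6.

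The 2 IDs with the highest values among genes detected in T-cell libraries only both belonged to T6. ENSCAFG00000015412 stood at 228 FPKM in T6, the second-highest peak of all 226 genes. In the T-cell libraries its lowest value and its median were 0, and the next highest library was T5 at 0.607 FPKM. Over the B-cell libraries it ran from 0 to 0.284 FPKM with a median of 0. T6 thus lay 375 times above every other library, and 22 of the others were listed at 0. ENSCAFG00000010624 stood at 113 FPKM in T6 and at 0.296 FPKM in T5, the next highest, a ratio of 383. Its T-cell median was 0.0224 FPKM, its B-cell values ran from 0 to 0.035 FPKM with a median of 0, and 23 libraries were listed at 0. For both genes a single T-cell tumour was high and the other 28 libraries were all under 1 FPKM. T5 lay above every B-cell library in FPKM, but it had the lowest relative depth, 0.522, so that each fragment adds more FPKM there. Its place above the B-cell libraries was not tested and is not read as a signal of the T-cell side.

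Among genes detected in B-cell libraries only, the 2 IDs with the highest values were both shared by B1 and B7. ENSCAFG00000006679 reached 628 FPKM in B7, the highest value of any member, and 220 FPKM in B1. The other 18 B-cell libraries were at most 0.72 FPKM, the highest being B9, their phenotype's median was 0, and the 9 T-cell libraries were all listed at 0. ENSCAFG00000019354 stood at 86.9 FPKM in B7 and 47.5 FPKM in B1. Its next highest library was T8 at 0.331 FPKM, the median was 0 in both phenotypes, and 21 libraries were listed at 0. In each gene 2 tumours were high and the rest were near 0, with no library between.

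**Figure D3:**
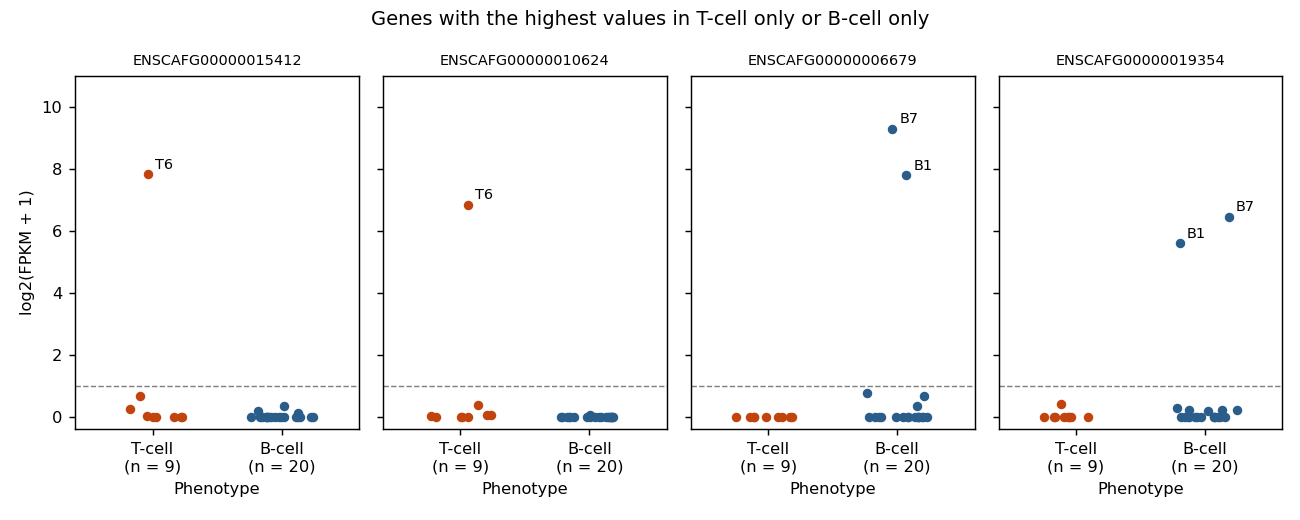
Points are libraries, by phenotype, for the 4 IDs, as log2(FPKM + 1), with the dashed line at 1 FPKM and libraries above it named. T6 stands alone for ENSCAFG00000015412 and ENSCAFG00000010624, and B7 and B1 stand apart for ENSCAFG00000006679 and ENSCAFG00000019354, with B7 above B1 in both.

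The genes co-occurred in particular groups of tumours. The 226 genes had 118 different sets of detected libraries, of which 89 belonged to 1 gene each. The 10 sets with at least 5 genes held 96 genes (42.5%). Besides T6, T5 and B8 alone, these were B3 with B8 (8 genes), T6 with B8 (8 genes), T5 with T6 (7 genes), T5 with T8 and T9 (7 genes), T4 with T5, T8 and T9 (7 genes), B1 with B7 (5 genes) and T5 with T9 (5 genes). Pairs of libraries mostly shared none of the genes: 256 of 406 pairs (63.1%) had no gene detected in both. That held for 142 of 190 pairs of B-cell libraries and 5 of 36 pairs of T-cell libraries. A library with few of the genes can share few, and 14 of the 15 libraries with at most 5 of them were B-cell libraries. The pair counts are therefore not a measure of co-occurrence apart from the number of genes per library, whose part was not tested. Of the 165 genes in 2 to 4 libraries, 102 (61.8%) kept to 1 phenotype, 70 of them T-cell and 32 B-cell. Among the genes that stayed under 5 FPKM the same share was 51.6% of 450.

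**Figure D4:**
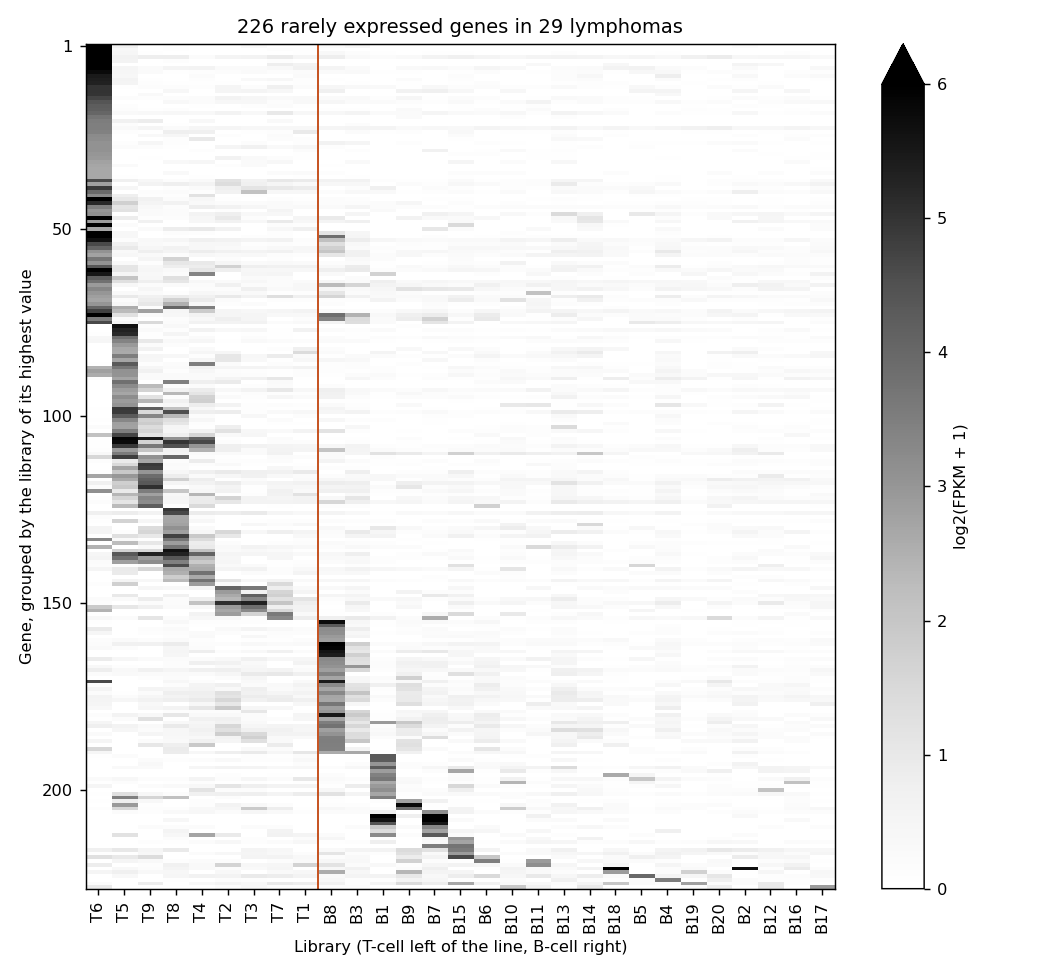
Rows are the 226 genes, grouped by the library of their highest value, and columns the 29 libraries, T-cell left of the line and B-cell right, each ordered by the number of these genes detected; grey gives log2(FPKM + 1), with values above 6 in black. The first 75 rows are genes highest in T6, the blocks below follow T5, T9, T8 and T4, and on the B-cell side the rows highest in B8 are often also raised in B3.

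T4, T5, T8 and T9 had many of the genes in common. T5 and T9 shared 35 genes, 48.6% of the genes detected in T5 and 76.1% of those in T9. T5 shared 23 with T8 and 21 with T4, T8 and T9 shared 21, and T4 shared 16 with each of T8 and T9. In all, 57 genes were detected in at least 2 of these 4 libraries, and 29 of them in no library outside the 4. The 7 genes detected in exactly these 4 had their highest value in T8 in 4 cases and in T5 in 3, at 10.04 to 58.5 FPKM. The step down to the next library was 4.94 to 30.2 times. The order of the 4 libraries changed from gene to gene. The gene with the highest peak stood at 58.5 FPKM in T5, 43.8 in T9, 16.6 in T4 and 7.66 in T8. The gene with rank 3 by peak stood at 48.8 FPKM in T8 and at 3.26, 2.18 and 1.87 FPKM in T4, T5 and T9. Among the genes detected in 1 to 4 libraries that stayed under 5 FPKM, T5 and T9 shared 27. These were 12.7% of such genes in T5 and 32.1% of those in T9. Of such genes 50.8% were detected in 1 library only, against 27.0% of the members, so the shares are not like for like.

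B3 and B8 shared more of the genes than any other pair of B-cell tumours, 25 in number, 92.6% of the 27 genes detected in B3 and 45.5% of the 55 in B8. The levels were unequal. In the 8 genes found in these 2 libraries only, B8 was the higher in all, from 6.13 to 67.7 FPKM, and B3 ran from 1.06 to 6.96 FPKM, a median ratio of 11.9. With the rule applied again to the libraries without B8, there were 199 members, a different set of genes. Of the detections of these members 74.7% were in T-cell libraries, against 63.7% for the members chosen with B8. Among the genes that stayed under 5 FPKM, B3 and B8 shared 34, 43.6% of those in B3 and 21.1% of those in B8.

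The genes found in B1 and B7 kept a similar ratio between these libraries over a wide range of levels. In the 5 genes detected nowhere else, B7 was the higher in all, at 1.83 to 3.59 times B1. Over the 5 genes the level fell from 220 FPKM in B1 and 628 in B7 to 1.61 and 5.79 FPKM. The gene with rank 3 by level, at 20.6 FPKM in B1 and 45.3 FPKM in B7, was listed at 0 in the other 27 libraries, and it is 1 of the 3 genes listed at 0 in every undetected library. Of the other 2, 1 stood at 29.9 FPKM in T8 alone, and 1 at 10.54 to 12.2 FPKM in B7 and B15.

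T6 also shared genes across the phenotype border. It had 14 genes in common with B8, 15.7% of those in T6 and 25.5% of those in B8, close in number to the 18 it shared with T5. In the 8 genes found in T6 and B8 only, T6 was the higher in 7, with a median of 23.8 FPKM against 2.67 FPKM in B8. The exception stood at 24.0 FPKM in T6 and 42.2 FPKM in B8. B8 shared 11 genes with T2 and 11 with B9. Among the genes that stayed under 5 FPKM, T6 and B8 shared 16, 9.76% of those in T6 and 9.94% of those in B8.

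**Figure D5:**
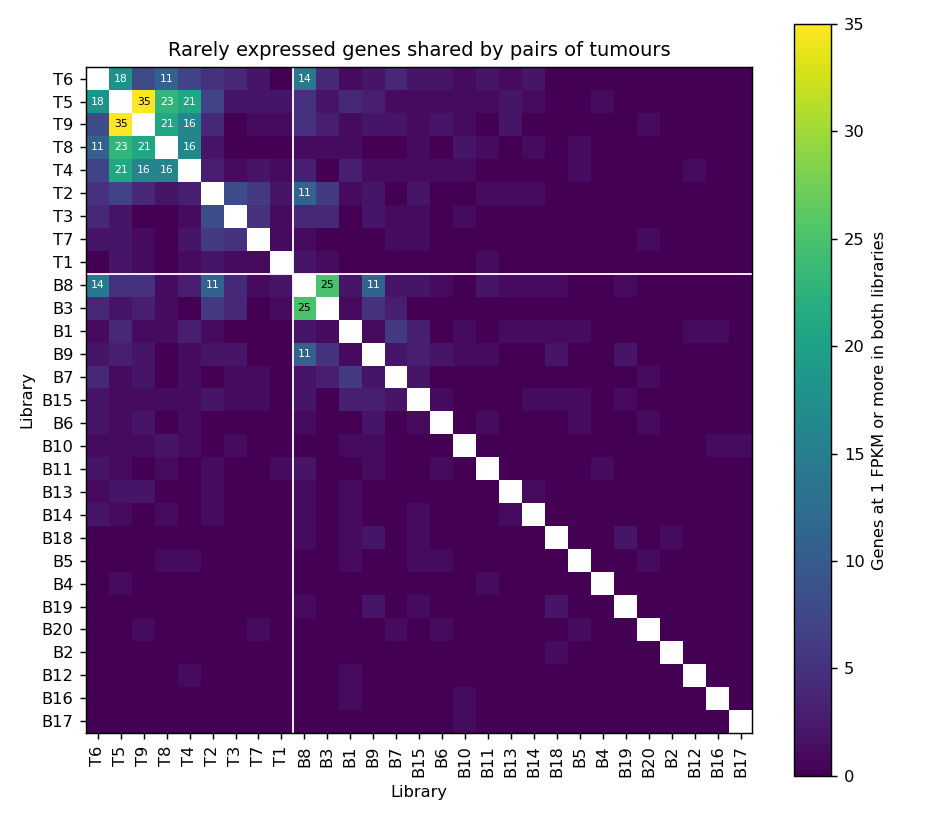
Colour gives the number of the 226 genes at 1 FPKM or more in both libraries of a pair, printed from 10 upward, with white lines between T-cell and B-cell libraries. T5 with T9 (35), B3 with B8 (25) and the other pairs among T4, T5, T8 and T9 stand out, T6 with B8 (14) is the highest pair across phenotypes, and most B-cell pairs are at 0.

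Whether libraries that share these genes are alike in other genes was read from the 11552 genes detected in at least 5 libraries, which the rule leaves out. The correlations are across genes of log2(FPKM + 1) and are given as a description, since genes are not replicates and every library enters 28 of them. In the group of T4, T5, T8 and T9, T4 and T9 were each other's most similar library (Pearson r = 0.932), T8 was in place 2 for T9 and T9 in place 1 for T8 (r = 0.929), and T4 and T8 were in place 2 for each other (r = 0.929). T5 stood further off: T9 was the library most like it (r = 0.863), while T5 itself was in place 9 for T9, 17 for T8 and 19 for T4. B3 was the library most like B8 (r = 0.934), and B8 was in place 5 for B3. For B1 and B7 r was 0.936, with B7 in place 10 for B1 and B1 in place 11 for B7 among the 28 other libraries. T6 and B8 were among the least alike, at r = 0.776, with B8 in place 26 of 28 for T6 and T6 in place 27 for B8. T5 and T6, which shared 18 of the rarely detected genes, were less alike still, at r = 0.714. T5 was in place 28 for T6, and T6 in place 27 for T5. Low values of T6 were not particular to these pairs, since the library most like T6 was T9, at only r = 0.823.

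In the libraries where a gene was not detected, values also tended to be higher in T-cell tumours. The median over undetected T-cell libraries was above that over undetected B-cell libraries for 150 of 226 genes, below it for 34 and equal for 42. It was above in 80 of the 117 genes detected in T-cell libraries only, in 24 of the 46 detected in B-cell libraries only and in 46 of the 63 detected in both. The levels were low, with a median over the genes of 0.113 FPKM for T-cell and 0.055 FPKM for B-cell libraries. Among the 914 genes under 5 FPKM the T-cell side was the higher in 503 (55.0%), against 66.4% of the 226.

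The phenotypes were compared in a limma fit of log2(FPKM + 1) over all 12692 genes detected in any library, with Benjamini-Hochberg adjusted p under 0.05 as the threshold. Of the 226 rarely detected genes 70 (31.0%) were higher in T-cell tumours, where the same call was made for 23.0% of all genes tested. None was higher in B-cell tumours (1 with a pseudocount of 0.1 in place of 1), where the share of all genes was 15.2%, and none reached an unadjusted limma p under 0.05 in that direction, against 18.99% of all genes. Towards T-cell tumours 90 members (39.8%) did, against 28.8% of all genes. Over both directions the members' share of 39.8% was below the 47.8% of all genes. A member can be detected in at most 4 of 9 T-cell (44.4%) but only 4 of 20 B-cell libraries (20%), so that the design gives more room to the T-cell side. Most genes tested have no such limit. The lack of members higher in B-cell tumours was thus in large part set by the rule. Beside the shares of all genes it is not a result about the members. Calls towards T-cell tumours also followed the number of T-cell libraries in which a member was detected. They were made for 0 of 46 members detected in 0 T-cell libraries, 6 of 84 in 1 and 23 of 49 in 2. With 3 T-cell libraries they were made for 25 of 31 members, and with 4 for 16 of 16. The calls are therefore not independent of the detections counted above. Among the 70, the log2 change ran from 0.49 to 2.17 with a median of 0.86. Over all 226 genes the median log2 change was 0.51, against 0.10 over all genes tested.

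Whether the members were called towards T-cell tumours more often than other genes depended on the fit. With quantile normalization limma called 53 members (23.5%), against 17.2% of all genes, and with median-of-ratios scaling 70 (31.0%), against 18.9%. With limma array weights, which give libraries that deviate more a smaller weight, 43 members (19.03%) were called, against 33.9% of all genes, so that the members were called less often. The order also turned in the 19 libraries whose phenotype label is spelled with a space, 7 T-cell and 12 B-cell, where limma called 20 of 222 members (9.01%), against 14.4% of all genes. A higher share of members than of all genes is therefore not a result that holds under every setting. Each member was also tested by an exact permutation test over all 10015005 choices of 9 libraries. The unadjusted two-sided p of the 70 called genes was at most 0.019 in this test. The exact permutation p was under 0.05 in 112 of the 226 members, all of them higher in T-cell tumours. A member is detected in at most 20% of the B-cell libraries, which leaves little room for a low p towards B-cell tumours. That direction was therefore largely set by the rule, and its 0 is not a result about the members. The permutation test used the same values as limma, so it is not separate support for the calls. It was run on members only, so no share of all genes can be set beside it.

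Sex, neuter status and age did not give a call among these genes. For sex, adjusted for phenotype and neuter status, limma called 0 of the 226, against 0.00788% of all genes for higher in females and 0% for higher in males. At an unadjusted limma p under 0.05 there were 10 members (4.42%), 3 higher in females and 7 in males, against 10.3% of all genes. For neuter status, adjusted for phenotype and sex, limma called 0, with 0% of all genes in either direction, and 11 members (4.87%) had an unadjusted p under 0.05, against 10.6% of all genes. For age, adjusted for phenotype, sex and neuter status, limma called 0, again with 0% of all genes, and 8 members (3.54%) had an unadjusted p under 0.05, against 4.86% of all genes. The lowest limma adjusted p of a member was 0.442 for sex, 0.406 for neuter status and 0.907 for age. A member was detected in at most 4 libraries, which limits how low its p can fall in any of these comparisons. The lack of calls and the lower shares are therefore not a result about the members.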

How the data were processed

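The authors deposited a single table of FPKM per Ensembl gene. The tools named, per the submitters' processing notes, are FastQC 0.11.2, TopHat 1.4.1 and Cuffdiff, and the build is CanFam3.1. The sources used here state neither the role of each tool nor the annotation or any scaling of the libraries. Of 78 value columns, the 29 named by a sample title were used and 49 were not. Of 16382 IDs, 0 matched a symbol in the RefSeq table at hand, so 19 gene lists could not be applied. The members and lists were chosen with earlier results of these data known.

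Without symbols, the rule for named genes took the 2 IDs with the highest FPKM among members detected in T-cell libraries only and the 2 in B-cell libraries only. Genes detected at 1 FPKM or more in any library were tested as log2(FPKM + 1), pseudocount 1, with limma 3.58.1 in R 4.3.3 (variance trend, robust moderation, both directions). Fits were tested on simulated data in which well-expressed genes were shifted in all T-cell libraries. That test does not cover genes that are high in few libraries, as the members are. Relative depth was read from the most frequent ratio between libraries of FPKM under 0.2, which fitted 807 of 812 ordered pairs of libraries within 0.05 log2 units; it includes any scaling by the authors, and B6 was uncertain by a factor of 2. Python 3.11.15, numpy 2.4.6, pandas 2.3.3 and matplotlib 3.10.9 were used.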

Additional observations from a re-analysis of the deposited data

Results flagged for a closer look

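In the 9 T-cell libraries, 4 of 6 measures held a library farther from its neighbour than Dixon's 95% limit of 0.493 of the range. Chance flags about 1 group in 20, but that rate does not apply here, since the measures come from genes chosen for being high in few libraries, and the results are given as descriptions. T6 stood apart in the share of its FPKM taken by the rarely detected genes, at 0.495% against 0.240% in T5, the next. T6 also stood apart for ENSCAFG00000015412, at 228 FPKM against 0.607, and for ENSCAFG00000010624, at 113 FPKM against 0.296. For ENSCAFG00000019354, T8 was the only T-cell library above 0, at 0.331 FPKM, which sets it apart by construction. The number of rarely detected genes per T-cell library set no library apart by this measure.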

How the results depend on the processing

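The number of members (226) stayed within 1.5 times in 6 of 10 alternatives. The exceptions follow from moving the rule's own limits: 130 with detection at 0.5 FPKM, 412 at 2 FPKM, 363 with a highest FPKM of at least 3 and 122 with at least 10. In the same order the median ratio of the highest to the highest undetected FPKM (18.4) was 45.1, 7.51, 11.3 and 47.96. The share of detections in T-cell libraries (63.7%) was 70.0% with detection at 0.5 FPKM, 69.3% with a highest FPKM of at least 10, 68.2% in libraries whose label has a space, and 53.8% without both T5 and T6, a setting chosen after the data were seen. The share of genes in 1 library (27.0%) was 33.5% with 1 to 3 libraries and 17.4% without T5 and T6. The share of detections held by the library with most (16.7%) was 21.9% and 13.5% in these settings. The share of genes in 2 to 4 libraries that kept to 1 phenotype (61.8%) was 71.1% with detection at 0.5 FPKM and 52.0% where the label has a space. With each library left out in turn there were 172 to 244 members, T-cell shares of 60.5% to 74.7%, single-library shares of 17.4% to 32.2%, ratios of 15.3 to 20.8, top-library shares of 15.8% to 19.9% and 1-phenotype shares of 56.6% to 71.9%. Members called higher in T-cell tumours (70) were 43 with array weights (19.03%, against 33.9% of all genes) and 20 where the label has a space (9.01%, against 14.4%), so the members' share lay below that of all genes in both, unlike the 31.0% against 23.0% reported, and 56 to 78 with each library left out; the other 7 alternatives gave 53 to 77. Members called higher in B-cell tumours were 0 except for 1 with a pseudocount of 0.1, and 0 to 0 with each library left out. Sex, neuter status and age gave 0 in all 9 alternatives each and with each library left out. Where no reason is given, the cause was not tested. No paired analysis was possible because the replicate numbers were given in accession order and pair no libraries. Values near 0 FPKM are limited by the unknown number of fragments.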

Other observations

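B2 had 1 rarely detected gene, and its level was high, at 49.4 FPKM, with 63.7 FPKM in B18 and at most 0.872 FPKM in every other library. The 44 genes with a highest FPKM of at least 5 that were detected in 5 libraries, and so fall just outside the rule, had 66.8% of their 220 detections in T-cell libraries. T5 had 28 of the 44, T4 had 24, T8 had 23, T9 had 19 and T6 had 18.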
